A study of Rattus norvegicus with 18 samples.

Results

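Described here are the 4 Egr genes (Egr1, Egr2, Egr3 and Egr4) and the 3 Nr4a genes (Nr4a1, Nr4a2 and Nr4a3) in cultured rat cortical cells exposed to toxic glutamate. They are the 7 rows of the count files, of 31463 rows in all, whose name equals one of these symbols when case is ignored. All 7 were found in every file. The filter on low counts left 14398 genes for testing, among them 6 of the 7, since Egr4 had 77 counts over the 18 libraries and was not tested.

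Immediate early genes are transcribed within minutes of a stimulus without new protein synthesis, and most of them encode transcription factors that pass the signal on to later genes. EGR proteins are zinc finger factors that bind GC-rich sites, and their activity is held back by the corepressors Nab1 and Nab2, of which Nab2 is itself an EGR target. NR4A proteins are orphan nuclear receptors that act without a bound ligand and are therefore governed mainly by how much of them is made. In neurons, calcium entry through NMDA receptors and voltage-gated channels induces both families through MAP kinase, CaM kinase, CREB and serum response factor, while glial cells induce Egr1 and Nr4a1 after growth factors and injury.

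The libraries came from primary cortical cultures of newborn rats that hold neurons and glia, and were used on day 10 in vitro. Glutamate was left on the cells for a limited time and then washed off, and the cells stayed in culture medium for 4 h from the end of that exposure before RNA was collected. There were 6 groups of 3 libraries. Control received no glutamate, and the other 5 groups all received 100 µM glutamate, the Memantine group according to the design text and not to its label. Memantine, a blocker of the NMDA receptor, was added at 100 µM. Glutamate_vesicles, Glutamate_secret and Glutamate_BPC also received, from the day before, material secreted by human glial progenitor cells, for the first of these extracellular vesicles. The labels do not say which of the names secret and BPC stands for the total secretome and which for its protein fraction, so the names are used as given. The 4 groups Glutamate, Glutamate_vesicles, Glutamate_secret and Glutamate_BPC are called the glutamate groups without memantine. The study's methods say of its experiments in general that they used cultures of unrelated cells, but no source used here ties a library to a culture or a day, so p-values measure the spread between these libraries. The study's supplement names batch-corrected values for its ordination plots, whereas the labels give no batch and none entered the main tests here. In such bulk samples, fewer cells of a type and less RNA per cell cannot be told apart.

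Library totals ranged from 8409574 to 17206354 counts, and ribosomal RNA took from 3.04% to 43.0% of a library, the highest share being that of Control 1. Some libraries stood apart from the others of their group. The summed level of 10 neuronal markers (Snap25, Syt1, Rbfox3, Tubb3, Map2, Stmn2, Syn1, Nefl, Gad1 and Slc17a7) was 2222 to 2944 CPM in Control and 544 to 1200 CPM in the 12 libraries of the glutamate groups without memantine. CPM are counts divided by the library size after TMM scaling, brought to a common library size. In Memantine the same sum was 3640, 2425 and 695 CPM in replicates 1, 2 and 3. Memantine 3 thus lay within the range of the glutamate groups without memantine. Several results that rest on the Memantine group, but not all, are also given without this library. None of the 10 neuronal markers was at 0 in all libraries of any group, so each was detected in every group. This does not measure how much of the neuronal part remained. The 8 astrocyte markers summed to 2954 to 6399 CPM in Control and 3478 to 13240 CPM over all treated libraries.

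RefSeq promoter entries of the rat assembly GRCr8, another build than the rn6 used by the authors, were found for 5 of the 7 genes, Egr1, Egr2, Egr4, Nr4a1 and Nr4a2. Only the first entry of each symbol was kept, so any other start of a gene was not searched. The 250 bases before the start are printed for Egr2 and Nr4a1, whose levels in all 12 libraries of the glutamate groups without memantine lay above Control, and for Nr4a2, whose levels overlapped with Control. Capitals mark the core of the cyclic AMP response element (TGACG or its reverse complement CGTCA), which CREB binds, and the CArG box, the site of serum response factor.
Egr2, chr20:21054442-21054691, minus strand: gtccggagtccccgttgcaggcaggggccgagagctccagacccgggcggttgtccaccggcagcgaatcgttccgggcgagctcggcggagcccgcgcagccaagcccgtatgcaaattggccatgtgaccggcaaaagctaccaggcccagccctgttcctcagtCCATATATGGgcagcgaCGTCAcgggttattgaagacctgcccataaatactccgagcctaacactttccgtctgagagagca
Nr4a1, chr7:134259888-134260137, plus strand: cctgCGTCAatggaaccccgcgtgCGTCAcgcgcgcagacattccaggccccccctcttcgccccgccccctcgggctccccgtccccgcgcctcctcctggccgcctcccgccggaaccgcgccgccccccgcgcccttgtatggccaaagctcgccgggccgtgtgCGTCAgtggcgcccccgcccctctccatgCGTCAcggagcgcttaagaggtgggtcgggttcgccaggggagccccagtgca
Nr4a2, chr3:62104888-62105137, minus strand: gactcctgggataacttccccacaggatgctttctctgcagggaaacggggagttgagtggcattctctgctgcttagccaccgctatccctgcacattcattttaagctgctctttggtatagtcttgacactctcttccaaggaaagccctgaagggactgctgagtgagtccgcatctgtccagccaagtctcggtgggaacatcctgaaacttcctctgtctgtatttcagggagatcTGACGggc

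The core TGACG was searched on both strands and was present in 5 of the 5 promoters, against 19% of 27457 rat promoters of the same length. It occurred 4 times before Nr4a1, where it began 246, 226, 82 and 53 bases before the start, and 2 times each before Egr1 and Egr4. The single match before Nr4a2 began 8 bases before the start. A CArG box was present in 2 of the 5, against 1.5% of all promoters, with 2 matches before Egr1 and 1 before Egr2. In Egr2 the CArG box began 83 bases and the core element 66 bases before the start, and they do not overlap. The full palindrome TGACGTCA, which contains the core, was in none of the 5 and in 1.7% of all promoters. The EGR site GCGTGGGCG and the NR4A site AAAGGTCA were in none of the 5 and in 0.514% and 1.11% of all promoters, and the TATA box TATAAA was in none of the 5 and in 13.1%. These matches describe the letters of these windows and were not tested as binding sites.

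Egr1, the most studied member of its family and a common marker of neuronal and glial activation, measured 15.99, 13.8 and 14.5 CPM in the Control libraries. It reached 19.5, 53.3 and 33.7 CPM in Glutamate. In Memantine it stood at 28.5, 26.2 and 41.0 CPM, so that all 6 of these treated libraries exceeded the highest Control. The vesicle libraries had 21.8, 54.3 and 27.6 CPM, the Glutamate_BPC libraries 35.8, 47.0 and 29.1 CPM, and the Glutamate_secret libraries 14.65, 54.95 and 17.0 CPM. Of the 12 libraries of the glutamate groups without memantine, 11 lay above every Control library, and Glutamate_secret 1 lay within the Control range.

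Egr2, known for its part in Schwann cell myelination and hindbrain patterning, was barely detected in Control, at 0, 0.9325 and 0.9155 CPM, which are 0, 19 and 17 counts. It measured 1.81, 10.3 and 2.72 CPM in Glutamate and 2.255, 3.67 and 3.52 CPM in Memantine. The values were 1.89, 13.5 and 4.67 CPM in Glutamate_vesicles, 3.31, 10.5 and 3.62 CPM in Glutamate_secret and 4.26, 9.45 and 1.74 CPM in Glutamate_BPC. All 12 libraries of the glutamate groups without memantine lay above the highest Control library, as for 1.77% of all genes. Every Memantine library did so too, as for 1.16% of all genes. Replicate 2 was the highest of its group in each of the 5 treated groups.

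Egr3, a factor of memory formation and muscle spindle development, went the other way. It stood at 2.28, 3.14 and 2.69 CPM in Control and at 0, 0.762 and 0.292 CPM in Glutamate, where 15 counts remained over the group against 122 in Control. The 3 groups with secreted material ranged from 0 to 2.01 CPM, the highest being Glutamate_vesicles 2. All 12 libraries of the glutamate groups without memantine were below the lowest Control. In Memantine the libraries split, with 0.537 and 0.503 CPM in replicates 1 and 3 and 6.39 CPM in replicate 2, the highest value of all 18 libraries. Egr4, which resembles Egr3 in its neuronal expression, had 22 counts over the Control libraries, 3 over Glutamate and 30 over Memantine. Its rate in Glutamate was 0.171 of that in Control (95% exact counting interval 0.0328 to 0.5705) and its rate in Memantine was 1.40 of that in Control (0.783 to 2.55). These intervals cover counting error only, and 15 of the 30 Memantine counts were in replicate 1.

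Nr4a1, also named Nur77, a receptor tied to apoptosis and to synaptic and inflammatory control, measured 3.14, 4.12 and 4.58 CPM in Control. It was 8.14, 14.2 and 11.5 CPM in Glutamate and 14.95, 20.3 and 9.28 CPM in Glutamate_vesicles. The highest values were those of Glutamate_secret (17.96, 41.2 and 9.41 CPM) and Glutamate_BPC (35.95, 41.85 and 8.895 CPM). All 12 of these libraries lay above Control, but within the last 2 groups the libraries differed several times over, with replicate 3 close to the Glutamate libraries. Memantine 1 and 2 had 7.73 and 4.78 CPM, and Memantine 3 had 16.2 CPM, above every Glutamate library.

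Nr4a2, also named Nurr1, a factor of dopamine neuron identity, showed no such separation. It measured 4.85, 2.55 and 2.48 CPM in Control, 2.325, 8.06 and 4.09 CPM in Glutamate and 2.79, 6.61 and 2.95 CPM in Memantine. Over the 12 libraries of the glutamate groups without memantine it ran from 1.95 to 8.06 CPM with a median of 3.88, and 4 lay above and 3 below all Control libraries. Nr4a3, also named Nor1, overlaps with Nr4a1 in its targets. It stood at 5.996, 4.61 and 6.73 CPM in Control, 5.425, 8.0 and 4.96 CPM in Glutamate and 23.2, 6.72 and 7.47 CPM in Memantine. Its range over the 12 libraries was 3.26 to 11.01 CPM, with 4 above and 4 below all Control libraries. Memantine 1 thus held the highest Nr4a3 level of the series, while the other Memantine libraries were near the top of the Control range.

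**Figure D1:**
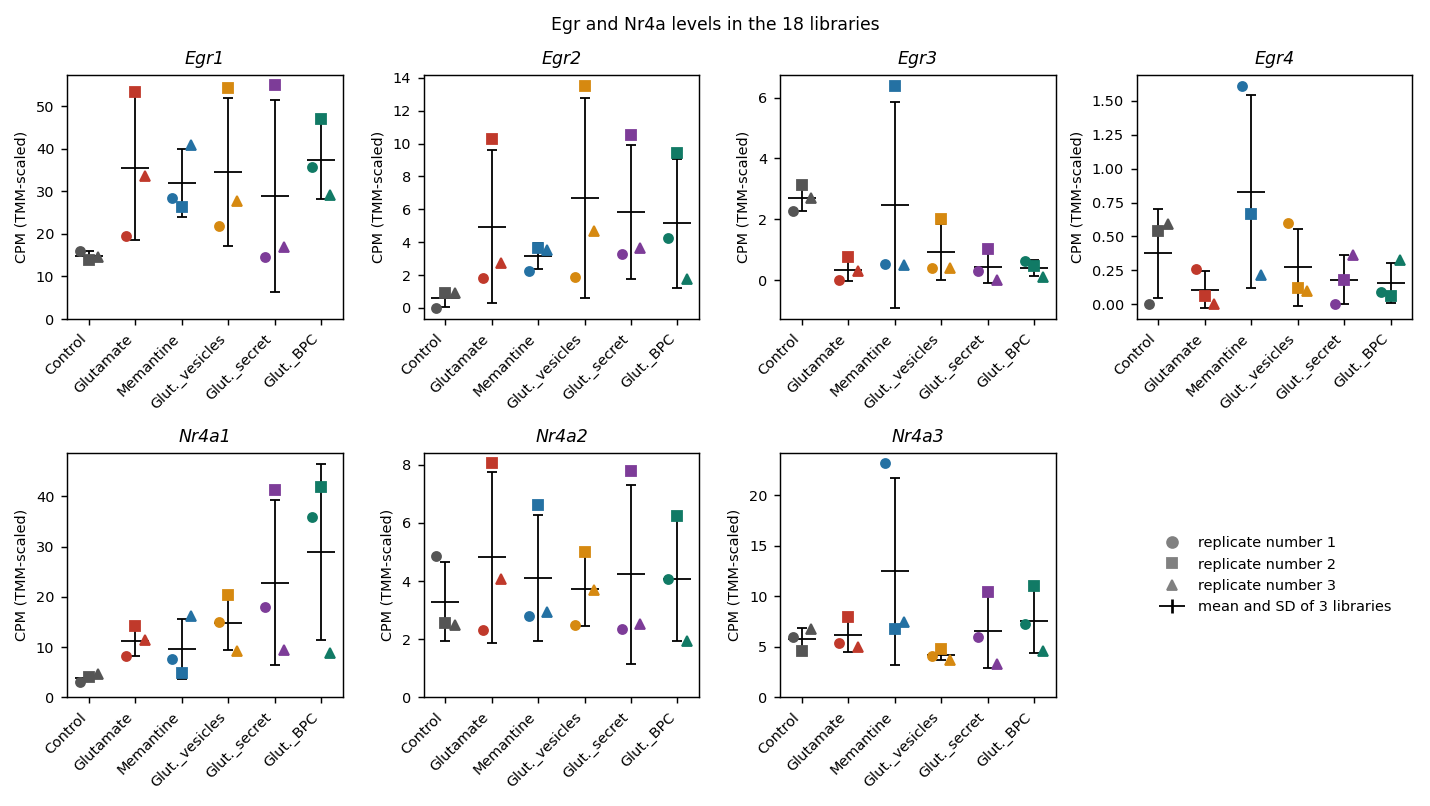
Level of each gene in CPM (TMM-scaled; y axes are linear and differ between panels) in the 6 groups (x axis). Each symbol is a library, its shape gives the replicate number, and the black lines are the mean and SD of 3 libraries. Egr1, Egr2 and Nr4a1 sit above the 3 Control libraries in most or all glutamate libraries, Egr3 sits below them except in Memantine 2 at 6.39 CPM, and Nr4a2 and Nr4a3 overlap with Control.

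In Glutamate against Control, which asks what the toxic stimulus did, the ranges of 4 of the 6 tested genes did not overlap. Egr1, Egr2 and Nr4a1 were higher, where 4.48% of all genes were higher without overlap, and Egr3 was lower, where 7.76% were. The log2 fold change was 1.27 (SE 0.51, unadjusted p = 0.0249 in edgeR's quasi-likelihood test) for Egr1, 2.80 (SE 0.96, unadjusted p = 0.0101) for Egr2, -2.82 (SE 1.25, unadjusted p = 0.0381) for Egr3 and 1.5 (SE 0.63, unadjusted p = 0.0305) for Nr4a1. Nr4a2 had 0.59 (SE 0.64) and Nr4a3 0.09 (SE 0.53), and the median of the 6 was 0.93 against 0.085 over all genes. No gene at all was called at an adjusted p below 0.05 (0% of 14398), and the adjusted p of these 6 lay between 0.378 and 0.999. A looser criterion was also used, a fold change of more than 1.5 with p under 0.05 before adjustment. The study's results pair this fold change with a p-value and do not say whether it was adjusted. Its methods name an FDR below 0.05. Under the looser criterion, the 3 higher genes compare with 2.1% of all genes and the 1 lower gene with 5.97%. When each library was left out in turn, the unadjusted p stayed below 0.05 in 5 of 6 fits for Egr2, 3 for Egr1, 2 for Egr3 and 1 for Nr4a1. Glutamate 2 moved the values most, since without it Egr2 had 1.66 (unadjusted p = 0.0981 in edgeR) and Egr3 had -4.04 (unadjusted p = 0.0241 in edgeR), and Nr4a2 had -0.001.

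The 4 glutamate groups without memantine were then compared together with Control, which adds libraries on 1 side and shares the same 3 Control libraries. This comparison called 570 genes (3.96%), and 1 of the 6, Nr4a1, was among them. Nr4a1 rose by a log2 fold change of 2.19 (SE 0.57, adjusted p = 0.0418 in edgeR's quasi-likelihood test), which is a 4.57-fold rise. The change of Egr2 was 2.98 (SE 0.87, adjusted p = 0.0702), that of Egr1 1.20 (SE 0.43, adjusted p = 0.152) and that of Egr3 -2.36 (SE 0.82, adjusted p = 0.134). These 3 did not pass the adjusted threshold. All 4 met the looser criterion, 3 upward against 4.62% of all genes and 1 downward against 11.2%, and they met its p threshold in each of the 15 fits that left out 1 library. The ranges did not overlap for Egr2 and Nr4a1 among the 1.77% of genes that were higher throughout, and for Egr3 among the 5.41% that were lower. Nr4a3, with 0.06 (SE 0.42), was closest to 0, and Nr4a2 had 0.39 (SE 0.52).

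The call of Nr4a1 was a narrow one. It held in 4 of the 15 fits without 1 library, namely without Glutamate 1, Glutamate_secret 2, Glutamate_secret 3 or Glutamate_BPC 3, with an adjusted p of 0.0321 to 0.0485. It was lost without each of the other 11 (every Control and Glutamate_vesicles library, Glutamate 2 and 3, Glutamate_secret 1 and Glutamate_BPC 1 and 2), with an adjusted p of 0.0555 to 0.188, and with no filter on low counts (0.0504), while the fold change stayed between 2.01 and 2.31 on the log2 scale in the fits without 1 library.

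**Figure D2:**
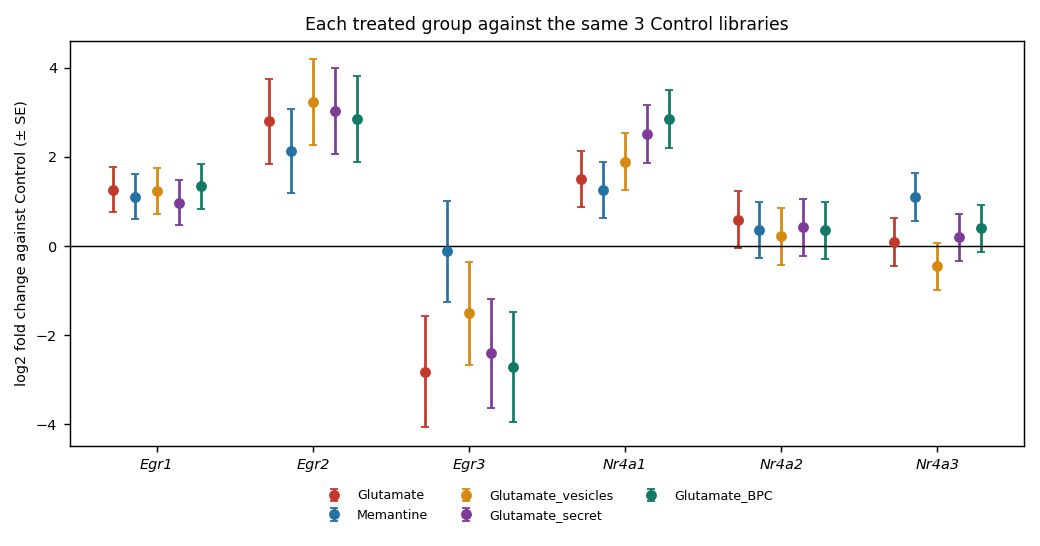
Log2 fold change with its SE from the edgeR fit (y axis) for the 6 tested genes (x axis), each treated group against the same 3 Control libraries. Egr1, Egr2 and Nr4a1 lie above 0 in all 5 groups, Egr3 lies below 0 most clearly in Glutamate at -2.82, and Memantine lies near 0 for Egr3 at -0.12.

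With vesicles against Control, 2 genes in all were called (0.0139%), none of them of the 7. Egr2 was the highest at 3.23 (SE 0.97, adjusted p = 0.221), followed by Nr4a1 at 1.89 (SE 0.64, adjusted p = 0.242) and Egr1 at 1.23 (SE 0.51, adjusted p = 0.36), and Egr3 was the lowest at -1.51 (SE 1.16). These 3 higher genes met the looser criterion, against 3.97% of all genes. Same-numbered libraries of these 2 groups deviated together, and with the replicate number as a block Egr2 rose by 3.00 on the log2 scale (SE 0.63, adjusted p = 0.0273). The block also raised the calls over all genes from 2 to 538. Glutamate_secret against Control (0% called) gave 3.04 (SE 0.96) for Egr2 and 2.52 (SE 0.65, adjusted p = 0.14) for Nr4a1, both past the looser criterion against 4.1% of all genes, and Egr3 was the lowest at -2.41 (SE 1.22). Without Glutamate_secret 2 these 3 values were 2.26, 1.78 and -3.97. Glutamate_BPC against Control (0% called) gave 2.86 (SE 0.66, unadjusted p = 0.000524, adjusted p = 0.295) for Nr4a1, 2.85 (SE 0.96) for Egr2 and 1.34 (SE 0.51) for Egr1, past the looser criterion against 3.9% of genes. Egr3 at -2.71 (SE 1.24) met it in the other direction, against 7.4%. Without Glutamate_BPC 2, Egr2 had 2.07, and without Glutamate_vesicles 2, Egr2 and Egr3 had 2.21 and -2.76 with vesicles against Control.

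Against Glutamate itself, none of the 3 preparations gave a call among these genes. With vesicles (0% called), Egr3 was the highest at 1.31 (SE 1.21) and Nr4a3 the lowest at -0.55 (SE 0.53), and no unadjusted p was below 0.05. The Egr3 value was 0.063 without Glutamate_vesicles 2 and 2.53 without Glutamate 2. With Glutamate_secret (0% called), Nr4a1 was the highest at 1.02 (SE 0.61, 95% interval -0.18 to 2.23) and Egr1 the lowest at -0.29 (SE 0.50). Without Glutamate_secret 2 these were 0.28 and -1.17. With Glutamate_BPC (0% called), Nr4a1 was the highest at 1.36 (SE 0.62, unadjusted p = 0.0438, adjusted p = 1 in edgeR), past the looser criterion upward as were 0.396% of genes, and Nr4a2 was the lowest at -0.24 (SE 0.63). In this comparison 154 of 14398 genes had an unadjusted p below 0.05. The unadjusted p of Nr4a1 stayed below 0.05 in 2 of 6 fits without 1 library. Without Glutamate_BPC 2, Nr4a1 had 0.99 (unadjusted p = 0.164 in edgeR). The order of the Nr4a1 means ran from Glutamate_BPC (28.9 ± 17.57 CPM, SD, n = 3) through Glutamate_secret (22.85 ± 16.4), Glutamate_vesicles (14.9 ± 5.53), Glutamate (11.3 ± 3.05) and Memantine (9.58 ± 5.95) to Control (3.95 ± 0.734). No neighbours in that order had an unadjusted p below 0.05 in edgeR, although the Memantine libraries lay above Control without overlap. Over the 6 tested genes, 30 neighbouring pairs of groups were compared, and only Memantine over Control for Egr2 had an unadjusted p below 0.05 (0.0372), while the lowest adjusted p was 0.485 in edgeR's quasi-likelihood test.

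Memantine against Glutamate asks what blocking the NMDA receptor changed within the model. No gene was called (0%). Egr3 had the largest difference at 2.70 (SE 1.24, unadjusted p = 0.0444, adjusted p = 0.954), past the looser criterion upward as were 4.86% of all genes. That value rested on Memantine 2 and was 0.45 (SE 1.19) without it, whereas it was 3.17 (SE 1.26, adjusted p = 0.267) without Memantine 3 and 3.92 without Glutamate 2. Nr4a3 had 1.02 (SE 0.53), which became 0.21 without Memantine 1 and 1.28 without Memantine 3. The other differences were -0.16 (SE 0.50) for Egr1, -0.66 (SE 0.88) for Egr2, -0.24 (SE 0.61) for Nr4a1 and -0.23 (SE 0.63) for Nr4a2, none of them past the looser criterion downward, which 0.201% of all genes met. Without Memantine 3, Nr4a1 had -0.86 (SE 0.66). The 95% interval for Egr1 ran from -1.14 to 0.83 in this fit, which does not pair same-numbered libraries. Differences of that size could not be told from none in it. Egr4 had 30 against 3 counts, a rate 8.19 times as high (95% exact counting interval 2.55 to 41.95). That interval covers counting error only and not the spread between libraries. The ranges overlapped, since Memantine 3 had 0.216 CPM of Egr4 and Glutamate 1 had 0.258 CPM.

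Memantine against Control called no gene (0%), yet Egr1 and Egr2 were among the few genes that met the looser criterion upward (0.576% of all genes). Egr2 had 2.14 (SE 0.94, unadjusted p = 0.0372) and Egr1 1.11 (SE 0.51, unadjusted p = 0.0448), with an adjusted p of 1 for both in edgeR. No member met it downward, as 0.542% of genes did, and Egr3 was the lowest at -0.12 (SE 1.13), or -2.37 without Memantine 2. The ranges of Egr1, Egr2 and Nr4a1 lay above Control without overlap, as for 1.16% of all genes, and none lay below, as for 1.19%. Nr4a1 had 1.26 (SE 0.63), and its gap was small, from 4.58 CPM in the highest Control to 4.78 CPM in Memantine 2. Without Memantine 3 the values were 0.91 for Egr1, 2.07 for Egr2 and 0.67 for Nr4a1 on the log2 scale, with unadjusted p of 0.125, 0.0641 and 0.319. Set against Memantine, the 4 glutamate groups without memantine (2.39% of genes called) had none of the 6 called. Egr3 was lower by -2.24 (SE 0.81, adjusted p = 0.203) and Nr4a3 by -1.05 (SE 0.39, adjusted p = 0.221), both past the looser criterion downward with 10.4% of all genes, and Nr4a1 was the highest at 0.93 (SE 0.51). Without Memantine 3 these were -2.70 (adjusted p = 0.0627), -1.30 (adjusted p = 0.0739) and 1.56 (adjusted p = 0.131). Without Memantine 2 the Egr3 difference was 0.01, and without Memantine 1 that of Nr4a3 was -0.24. An F test over all 6 groups called 1 gene (0.00695%), which was none of these, and Nr4a1 had the lowest p among them (unadjusted p = 0.00719, adjusted p = 0.261).

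The balance of related genes within a library does not depend on the scaling between libraries. The shares below were chosen after the values were seen and are given as a description. Nr4a1 reads made up 22.4%, 36.5% and 33.2% of the reads of the 3 Nr4a genes in the Control libraries. In the 12 libraries of the glutamate groups without memantine the share ran from 47.0% to 76.05% with a median of 64.7%, and no library reached down to Control. Memantine 1 and 2 had 22.9% and 26.4%, within the Control range, with 95% exact binomial intervals of 18.4 to 28.0% and 21.7 to 31.5%. Memantine 3 had 60.9% (55.75 to 65.9%), within the range of the glutamate groups without memantine.

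Egr3 reads were 12.5%, 18.6% and 15.6% of the Egr1 and Egr3 reads in Control. They were 0 to 3.56% in the 12 libraries without memantine, where the 2 libraries at 0 had 0 of 151 and 0 of 94 reads, which allows a share of up to 1.99% and 3.19% at a floor of 3 counts, or 2.41% and 3.85% by the exact interval used for the other libraries. Memantine 2 stood at 19.6% (16.45 to 23.0%), like Control, while Memantine 1 and 3 had 1.85% (0.604 to 4.27%) and 1.21% (0.489 to 2.48%). The Memantine libraries therefore split differently for the 2 families. Replicates 1 and 2 were on the Control side for the Nr4a1 share, and replicate 2 alone was for the Egr3 share. In Memantine 1 the low Nr4a1 share went with a high Nr4a3 share, 68.8% of the Nr4a reads against 40.9% to 48.8% in Control, while its Nr4a1 level of 7.73 CPM lay above Control and near Glutamate 1 at 8.14 CPM. In Memantine 2 the Nr4a3 share was 37.1%. The intervals cover counting error only.

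**Figure D3:**
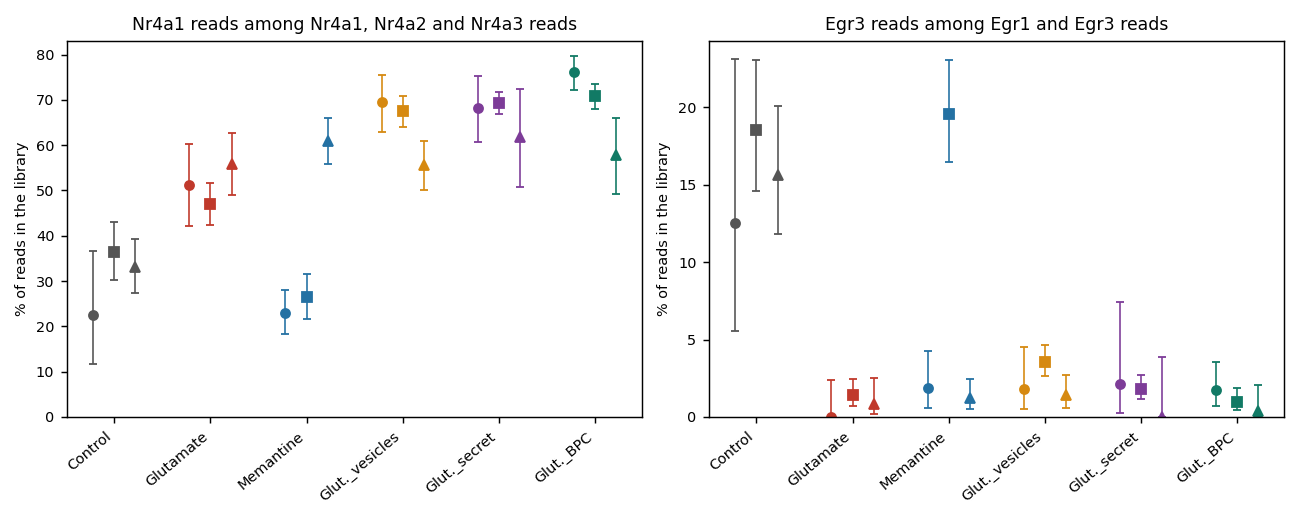
Left, Nr4a1 reads as a percentage of the reads of Nr4a1, Nr4a2 and Nr4a3; right, Egr3 reads as a percentage of Egr1 and Egr3 reads (y axes), per library in the 6 groups (x axes), with exact 95% binomial intervals; circles, squares and triangles are replicates 1, 2 and 3. All 12 libraries of the glutamate groups without memantine lie at 47.0% or above on the left and at 3.56% or below on the right, and the Memantine libraries lie on both sides.

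Neuronal markers moved with these values. Of the 10, 9 were lower at the looser criterion in the glutamate groups without memantine than in Control, where 11.2% of all genes were. Of the 10, 3 were called lower, where 3.7% of all genes were. The median log2 fold change of the 10 was -1.725 against 0.04 for all genes. Tubb3, neuronal tubulin, fell by 2.04 (SE 0.29, adjusted p = 0.00456 in edgeR), Slc17a7, a vesicular glutamate transporter, fell by 2.64 (SE 0.55, adjusted p = 0.0149) and Nefl, a neurofilament, fell by 1.80 (SE 0.46, adjusted p = 0.0402). The 3 Control libraries and Memantine 1 and 2, the 5 libraries with 2222 CPM or more of summed neuronal markers, were also the 5 with an Nr4a1 share of 36.5% or less. Egr3 did not follow the sum as closely, since Memantine 1 had the highest sum, 3640 CPM, with 0.537 CPM of Egr3. The part of neuronal content in the levels of Egr3 and Nr4a1 was not tested.

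**Figure D4:**
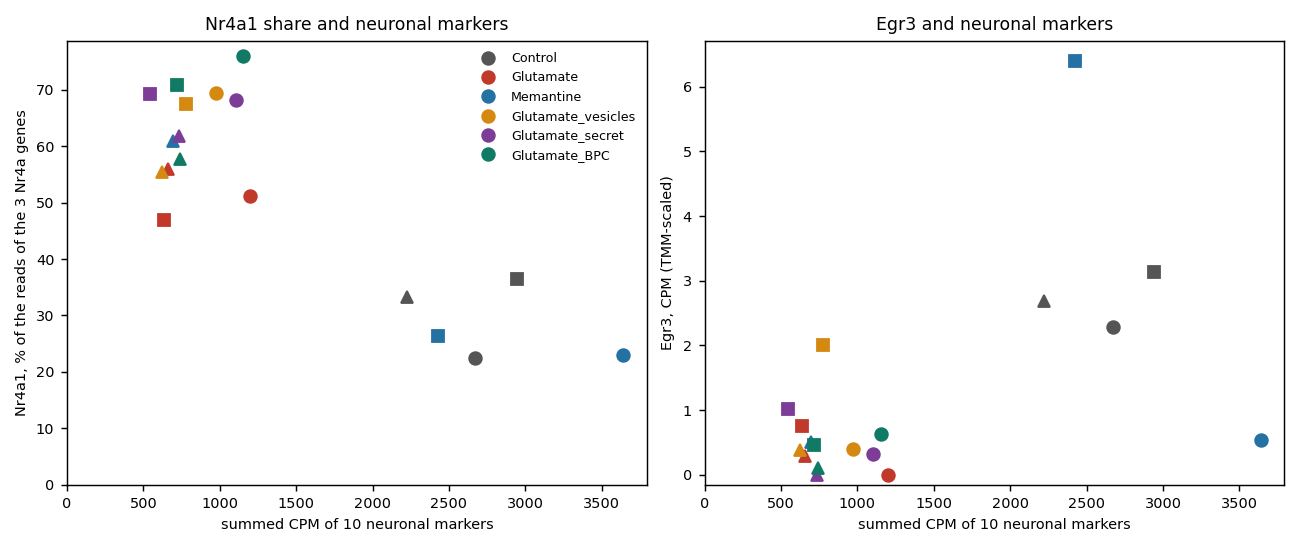
Summed CPM of 10 neuronal markers (x axes) against the Nr4a1 share of the Nr4a reads in percent (left) and the Egr3 level in CPM (right); each symbol is 1 of 18 libraries, colours give the group, and circles, squares and triangles are replicates 1, 2 and 3. The 3 Control libraries and Memantine 1 and 2 lie at 2222 CPM or more on the x axis, and Memantine 3 lies at 695 CPM among the glutamate groups without memantine.

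The other marker lists gave no call in that comparison. The looser criterion was met there by 4.62% of all genes upward and 11.2% downward. The astrocyte list had 0 of 8 genes past the looser criterion and a median of 0.21, with Gfap at 1.11 (SE 0.57). The 8 oligodendrocyte markers had 3 genes past it upward, and their sum was 373.5 to 664.5 CPM in Control and 671 to 1363 CPM in the 12 libraries. The 8 microglial markers had 1, Tmem119, with sums of 37.7 to 99.7 CPM in Control and up to 559 CPM in Glutamate_secret 3, and Memantine 3 had 361 CPM against 27.3 and 36.8 CPM in Memantine 1 and 2. The part of glial content in the levels of the 7 genes was not tested. Of the 7 fibroblast and mural markers 4 were tested and 1 met it upward, with sums of at most 20.2 CPM in any library, and of the 5 endothelial markers in the files 1 was tested and met it downward, with sums of at most 4.21 CPM.

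Egr1, Egr2 and Nr4a1 also varied together across libraries. Over the 18 libraries, Pearson's r of the log2 CPM was 0.75 between Egr1 and Egr2 (rho 0.77, permutation p = 7e-05, adjusted p = 0.001), 0.76 between Egr2 and Nr4a1 (rho 0.75, permutation p = 0.00014, adjusted p = 0.001) and 0.70 between Egr1 and Nr4a1 (rho 0.71, permutation p = 0.0013, adjusted p = 0.0067). The permutations exchanged all 18 libraries without regard to group, so differences between groups and in RNA quality can also lower these p-values. How often other pairs of genes reach such an r was not computed. Without the 2 libraries farthest from the median of the first gene, r was 0.71, 0.74 and 0.60. With the group means removed it was 0.67, 0.59 and 0.70. Within the 6 libraries of replicate number 1, 2 and 3, r was 0.49, 0.99 and 0.49 for Egr1 and Egr2, 0.86, 0.82 and 0.75 for Egr2 and Nr4a1, and 0.50, 0.84 and 0.85 for Egr1 and Nr4a1. Of the 15 pairs tested, 4 had an adjusted p below 0.05 for r and 5 for rho, the fourth pair by r being Egr1 and Nr4a2 (r 0.67, rho 0.63, permutation p = 0.0031, adjusted p = 0.012), which had 0.20 within number 1 and 0.39 within number 3.

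Egr3 stood outside this pattern. Its r was -0.01 with Egr1, -0.16 with Egr2 and -0.31 with Nr4a1, and none had an adjusted p below 0.05. Once the group means were removed, these values were 0.56, 0.60 and 0.37, so that within groups Egr3 tended to be higher where Egr1 was higher, while between Control and the glutamate groups the levels differed in opposite directions. These centred values were not tested. Within replicate number 1, 2 and 3, r of Egr3 was -0.0, -0.66 and -0.23 with Egr1. It was -0.63, -0.61 and -0.60 with Egr2 and -0.32, -0.83 and -0.52 with Nr4a1. The positive r was thus seen across replicate numbers and not within any of them. The libraries share depth and RNA quality. In the 5 treated groups, replicate 2 had the lowest share of ribosomal RNA and the most genes with a count, and it was also the highest of its group for Egr2 and Nr4a2 in all 5 and for Egr1 and Nr4a1 in the 4 groups without memantine. With the ribosomal RNA share as a covariate, chosen after seeing the data, Egr2 (3.15, SE 0.59), Egr3 (-2.84, SE 0.70) and Nr4a1 (2.13, SE 0.50) were called in the glutamate groups without memantine against Control. That fit called 1554 of 14398 genes, against 570 without the covariate.

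The genes most like each member over the 18 libraries, among 11875 genes that averaged 1 or more on the log2 CPM scale, are given as a description. For Egr1 they were Arf6, a small GTPase of membrane traffic (r 0.824), and Wwtr1, the Hippo pathway coactivator TAZ (r 0.816). Egr2 was closest to Rhbdd1, a rhomboid protease (r 0.911), and Gpat3, an enzyme of triglyceride synthesis (r 0.909). Egr3 was closest to Prkacb, a catalytic subunit of protein kinase A, and Clstn3, a synaptic adhesion protein (r 0.921 each). Nr4a1 was closest to Slc7a3, a cationic amino acid transporter (r 0.863), and Tram1, a protein of the endoplasmic reticulum translocon (r 0.829), and Nr4a2 to Gorab, a Golgi protein (r 0.888), and Ell2, a transcription elongation factor (r 0.868). Nr4a3 had the weakest likeness, with a row that carries a transcript identifier (r 0.773) and Mpeg1, a macrophage perforin (r 0.74).

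Other immediate early genes gave a setting for these values. Of 30 tested, 4 were called in the glutamate groups without memantine against Control, all higher, where 0.257% of all genes were. The looser criterion was met by 17 upward and 3 downward, against 4.62% and 11.2% of all genes, with a median log2 fold change of 1.16 against 0.04 over all genes. Ccn1, a matricellular protein and serum response factor target, rose by 3.80 (SE 0.73, adjusted p = 0.0116 in edgeR), Ier3 rose by 3.50 (SE 0.69, adjusted p = 0.0125) and Trib1, a pseudokinase, rose by 1.60 (SE 0.30, adjusted p = 0.0114). Fos, a subunit of AP-1 and the fourth gene called, measured 13.7, 11.9 and 9.10 CPM in Control and 27.6, 43.5 and 80.2 CPM in Glutamate. In Memantine, Fos stood at 47.25, 19.7 and 41.0 CPM, above Control in all 3 libraries. Ccn1 was 14.3, 3.975 and 7.055 CPM in Control, 211, 49.5 and 36.9 CPM in Glutamate and 17.9, 7.78 and 46.6 CPM in Memantine. The number of called genes was 0 without Control 2 and 2 without Control 3, and 3 to 5 without any 1 of the other libraries. In Glutamate against Control, 15 met the looser criterion upward (2.1% of all genes) and none was called, and in Memantine against Control 9 did (0.576% of all genes).

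Among partners of the EGR and NR4A proteins, 2 of 7 were called in the same comparison, 1 in each direction, where 0.257% of all genes were called higher and 3.7% lower. Nab2, the EGR corepressor, stood at 10.6, 17.9 and 17.8 CPM in Control and at 30.4 to 50.5 CPM in the 12 libraries without memantine, a rise of 1.28 (SE 0.33, adjusted p = 0.0407 in edgeR). In Memantine it measured 19.9, 14.1 and 45.85 CPM, so that again replicate 3 lay with the glutamate groups without memantine. Rxrg, a retinoid receptor of the family with which NR4A proteins can pair, fell by 2.28 (SE 0.55, adjusted p = 0.0312). The number of calls in this list was between 0 and 2 in the fits without 1 library. It was 0 without Control 2, Control 3, Glutamate 3, Glutamate_vesicles 3, Glutamate_BPC 2 or Glutamate_BPC 3.

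Of 18 tested genes known as EGR or NR4A targets, 2 were called higher and 1 lower, against 0.257% and 3.7% of all genes, with a median of 0.54 against 0.04. Vgf, a neuropeptide precursor, rose by 2.88 (SE 0.74, adjusted p = 0.0408), Nab2 was the other higher gene, and Cdk5r1, the neuronal activator of Cdk5, fell by 2.09 (SE 0.49, adjusted p = 0.0276 in edgeR). Vgf was 10.85, 9.42 and 21.4 CPM in Control, 148, 19.7 and 24.9 CPM in Glutamate and 157, 17.0 and 37.0 CPM in Memantine. It was 135, 147 and 263 CPM in Glutamate_vesicles, 89.3, 91.5 and 85.6 CPM in Glutamate_secret and 126, 131 and 70.8 CPM in Glutamate_BPC. Glutamate 2 thus lay within the Control range and Glutamate 3 just above it, while every library with secreted material lay well above Control. This list gave 0 or 1 call without each Control library and each library with secreted material, and 2 or 3 without a Glutamate library. Among 27 upstream kinases and activators, none was called higher and 2 were called lower, with a median of -0.25 against 0.04 over all genes, of which 3.7% were called lower. By the looser criterion 1 was higher and 6 were lower, against 4.62% and 11.2% of all genes. Camk2b fell by 1.84 (SE 0.37, adjusted p = 0.0133) and Camk2a by 2.71 (SE 0.68, adjusted p = 0.0376), both subunits of the neuronal calcium and calmodulin dependent kinase. Against Memantine, both were again lower in the glutamate groups without memantine, by 1.71 (adjusted p = 0.0278) and 2.92 (adjusted p = 0.0376). The number of calls was 0 without Control 2 and 1 without Control 3, Glutamate 1 or 3, Glutamate_vesicles 1 or 3, Glutamate_secret 1 or 3 or any Glutamate_BPC library. Camk2a was 8.28, 26.5 and 24.4 CPM in Control, 2.325, 6.285 and 1.56 CPM in Glutamate and 6.98, 60.9 and 1.08 CPM in Memantine. Control 1 and Memantine 1 were thus close to the highest glutamate libraries without memantine, of which Glutamate_vesicles 2 had 6.82 CPM.

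**Figure D5:**
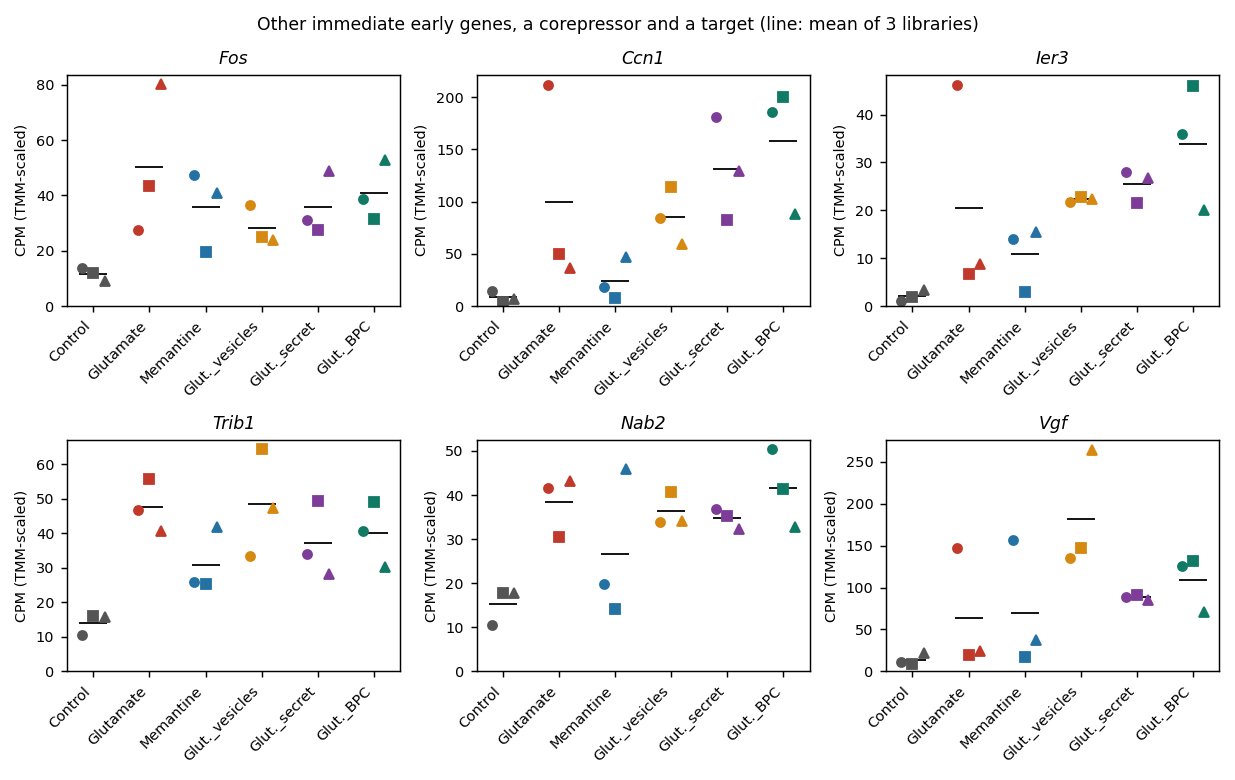
Level in CPM (y axes, linear, from 0) of the 4 other immediate early genes called in the glutamate groups without memantine against Control, the corepressor Nab2 and the target Vgf in the 6 groups (x axes); symbols are libraries with shapes for replicates 1, 2 and 3 as circle, square and triangle, and lines are means of 3. Nab2 lies between 30.4 and 50.5 CPM in the 12 libraries of the glutamate groups without memantine and at 17.9 CPM or below in Control.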

How the data were processed

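RNA of 18 libraries in 6 groups of 3 was analysed. According to the paper, reads were trimmed (Trimmomatic, Cutadapt) by the authors, assigned to Ensembl rat transcripts by Salmon in its mapping mode with decoys, and brought to gene level by tximport. The submitters' notes also name STAR and rn6. The Salmon release was not given in the sources used here, and the paper and the labels name different sequencers. The deposited values are expected counts, unscaled, and 8.65% of them were not whole within 0.001. They were rounded, although the tests had been designed for counts. The counts of the 7 genes were whole in every library.

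Genes were filtered with filterByExpr (minimum count 10, minimum total 15) and tested with edgeR 4.0.16 in R 4.3.3, with TMM scaling, 1 mean per group over all 18 libraries, the quasi-likelihood test (two-sided) and Benjamini-Hochberg adjustment over 14398 genes. Log2 CPM used a prior count of 2. SE are those implied by the quasi-likelihood F statistic, and 95% intervals are built from them with the normal quantile. Correlations used 100000 permutations of all libraries without regard to group (two-sided). The fit was checked on simulated counts with the same spread for every gene and no differences in RNA quality. That check does not show how the tests behave on libraries as uneven as these. DESeq2 1.42.0 and the other alternatives appear in the closing section. Replicates of each group differed beyond sampling noise. Same-numbered libraries were regarded as paired where their deviations correlated above 0.1 for all 3 numbers. This held for Glutamate_vesicles with Control, for Memantine, Glutamate_secret and Glutamate_BPC with Glutamate, for the 3 groups with secreted material with Memantine and for Glutamate_BPC with Glutamate_secret, and not for the other 7 of the 15 pairs of groups. The main fit did not use this pairing. Its SE, intervals and p-values are therefore unpaired for these pairs of groups too. Pairing entered only through the replicate block, 1 of the alternatives.

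Named were all 7 genes in every library and in Glutamate against Control and Memantine against Glutamate, elsewhere the highest, the lowest and any with an unadjusted p below 0.05, the 2 most alike genes, and up to 3 called genes per list or else the 2 of smallest p. Fos, also called in its list, was named after its values were seen. The members and lists were chosen with earlier results of these data known. Dusp1 and Cldn5 are not analysed here.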

Additional observations from a re-analysis of the deposited data

How the results depend on the processing

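The alternatives were the likelihood-ratio test of edgeR, DESeq2, RLE scaling, no filter on low counts, removal of the ribosomal RNA rows, the replicate number as a block, each library left out in turn and, chosen after seeing the data, the ribosomal RNA share as a covariate. In the 4 glutamate groups without memantine against Control, where 1 of 6 genes was called, 3 were called by the likelihood-ratio test, DESeq2, the replicate block and the covariate, 0 with no filter, and 0 to 1 without single libraries. By the likelihood-ratio test, the block and the covariate these were Egr2, Egr3 and Nr4a1, and by DESeq2 Egr1, Egr2 and Nr4a1. Numbers did not pair the libraries of all these groups, so the block is only an alternative there. Over all genes, the same comparison had 570 calls in the main fit and 471 with no filter. It had 1024 by the likelihood-ratio test, 1164 by DESeq2, 1731 with the block and 1554 with the covariate. Glutamate_vesicles against Control gave 1 call (Egr2) by the likelihood-ratio test, DESeq2 and the replicate block, which called 160, 489 and 538 genes in all. Glutamate_secret against Control gave 1 (Nr4a1) by the likelihood-ratio test and 2 (Egr2 and Nr4a1) by DESeq2, the block and the covariate, and Glutamate_BPC against Control gave 1 (Nr4a1), 1 (Nr4a1) and 2 (Egr2 and Nr4a1) by the likelihood-ratio test, DESeq2 and the block. Over all genes, the Glutamate_secret settings called 223, 443, 700 and 581 in that order, and the Glutamate_BPC settings 61, 256 and 251. The F test over 6 groups gave 1 (Nr4a1) by the likelihood-ratio test and by DESeq2, which called 587 and 717 genes in all. The replicate block changed no other count of called members, nor did RLE scaling or removal of the ribosomal RNA rows change any. For the 42 printed fold changes that were followed, 627 values came from alternatives, of which 607 kept their direction and 20 reversed, none past a threshold, 1 with the replicate block (Nr4a3 in the 4 groups against Control, -0.040) and 19 without 1 library. Their ranges over the fits without 1 library, with those that reversed them in brackets, were as follows. In Glutamate against Control, Nr4a2 ran from -0.001 to 0.95 (Glutamate 2) and Nr4a3 from -0.15 to 0.22 (Glutamate 2; -0.055 without Control 2). In Memantine against Glutamate, Egr1 ran from -0.45 to 0.26, Egr2 from -1.05 to 0.47 and Nr4a2 from -0.76 to 0.36 (all Glutamate 2), and Nr4a1 from -0.86 to 0.088 (Memantine 2). Egr3 ran from -2.37 to 0.38 in Memantine against Control (0.0005 without Control 2, 0.34 without Memantine 1, 0.38 without Memantine 3) and from -2.70 to 0.014 in the 4 groups against Memantine (Memantine 2). Nr4a3 in the 4 groups against Control ran from -0.086 to 0.19 (-0.086 without Control 2, -0.002 without Glutamate 2, -0.071 without Glutamate_secret 2, -0.034 without Glutamate_BPC 2). Egr1 in Glutamate_secret against Glutamate ran from -1.17 to 0.13 (Glutamate 2; 0.023 without Glutamate_secret 1), and Nr4a2 in Glutamate_BPC against Glutamate from -0.68 to 0.35 (Glutamate 2; 0.088 without Glutamate_BPC 3). The causes were not tested. Of the other immediate early genes, 4 were called in the 4 groups against Control, against 13 by the likelihood-ratio test and DESeq2, 15 with the block and 16 with the covariate. The calls over all genes rose under the same settings, as given above. Outside the fits without 1 library, the fold changes that moved by over 1.5 times were all of Egr3, which had -0.997 with the block and -1.25 with the covariate in Memantine against Control, 1.64 with the covariate in Memantine against Glutamate, 0.53 in Glutamate_vesicles against Glutamate and -2.35 against Control with the covariate, -3.08 and -3.35 with the block and the covariate in Glutamate_secret against Control and -1.59 with the covariate in the 4 groups against Memantine. With 3 libraries a group and single-digit CPM for most of these genes, depth and spread limit what could be detected, and Egr4 is at the limit of counting.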
